A study of Mus musculus with 2 samples.

Results

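MAFK regions of ES-E14 mouse embryonic stem cells that had a fair signal but entered no called list are described here. They were chosen by the deposited values. Each came from the relaxed list of the pooled replicates, which holds regions together with background, lay on chromosomes 1 to 19 or X, had a signal value of 12 or more, and shared no base with any of 6 thresholded lists. The signal value is a deposited score of enrichment on an unstated scale. Of 300000 regions in the pooled relaxed list, 23987 reached the signal minimum on these chromosomes, 19722 of them overlapped a thresholded list, and 4265 remained. These 4265 sub-threshold regions are 1.42% of the relaxed list and 17.8% of its regions at that signal.

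The study was a chromatin immunoprecipitation with sequencing (ChIP-seq) with a MAFK antibody in ES-E14, a male embryonic stem cell line of strain 129/Ola with no stated treatment or genetic change. It had 2 biological replicates of 1 group, with the same source of cells in the labels, so what separates them may in part be technical. The control experiment was not analysed here, and read depth is unknown because the files hold regions. The optimal list, the main called list of the same processing run, held 16865 regions, and 16836 of these lay on the same chromosomes. The weakest 25% of these by signal (4209 regions, the weakest called regions below) and the 6943 relaxed regions outside all called lists with a signal of 10 to under 12 served for comparison.

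MAFK is a small MAF protein, a basic leucine zipper factor without an activation domain of its own. It binds DNA as a homodimer or in a pair with one of the CNC factors (NFE2, NRF2, BACH1 and others), and these pairs act on antioxidant, heme and iron genes. The full MAF recognition element is the T-MARE palindrome, in which MAF core sequences flank an AP-1 element on both sides. The NFE2-type composite element keeps the AP-1 element and 1 of the MAF sides, and the antioxidant response element (ARE) core is a looser form of the same layout. The lists were thresholded by the irreproducible discovery rate (IDR), which in lists of both replicates asks whether a region ranks alike in both. A region can thus carry signal and still be left out. The thresholded lists also included lists of replicate 1 alone and of replicate 2 alone, which do not compare the replicates.

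The results below turn on the composite element, so 12 summit windows of sub-threshold regions that hold it are shown first. The composite element is TGACTCAGCA or TGAGTCAGCA, searched on both strands. The first 9 windows belong to 9 of the 10 holders of highest signal and the last 3 are among the 5 holders of lowest signal. All 101 bases of each window are centred on the summit, were read from the GRCm38 (mm10) reference, and are written 5′ to 3′ on the strand of the element, which is in capitals.
Isl1 region: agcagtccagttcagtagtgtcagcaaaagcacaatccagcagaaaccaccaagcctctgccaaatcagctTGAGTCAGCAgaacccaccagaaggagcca
March6 region: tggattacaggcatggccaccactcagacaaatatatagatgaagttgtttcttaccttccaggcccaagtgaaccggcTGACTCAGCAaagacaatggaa
Mapk1ip1 region: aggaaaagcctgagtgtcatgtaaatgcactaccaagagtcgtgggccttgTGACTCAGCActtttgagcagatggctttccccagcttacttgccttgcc
Col18a1 region: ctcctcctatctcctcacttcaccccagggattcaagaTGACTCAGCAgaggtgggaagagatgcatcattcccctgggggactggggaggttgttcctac
Sox4 region: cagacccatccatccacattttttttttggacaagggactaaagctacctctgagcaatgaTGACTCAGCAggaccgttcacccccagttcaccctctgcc
Eomes region: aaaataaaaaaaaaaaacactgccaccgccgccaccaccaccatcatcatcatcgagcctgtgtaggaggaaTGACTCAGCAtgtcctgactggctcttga
Cabcoco1 region: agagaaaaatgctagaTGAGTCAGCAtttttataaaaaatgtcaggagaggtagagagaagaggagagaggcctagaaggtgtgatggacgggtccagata
Cpne4 region: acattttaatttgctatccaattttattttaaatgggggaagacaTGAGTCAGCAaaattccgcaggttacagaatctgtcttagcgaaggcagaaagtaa
Mbnl1 region: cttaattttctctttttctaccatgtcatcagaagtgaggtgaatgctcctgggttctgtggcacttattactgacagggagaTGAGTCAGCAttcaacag
Stx8 region: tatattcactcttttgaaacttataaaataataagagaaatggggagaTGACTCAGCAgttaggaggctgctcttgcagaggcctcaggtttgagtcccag
Sh3bp4 region: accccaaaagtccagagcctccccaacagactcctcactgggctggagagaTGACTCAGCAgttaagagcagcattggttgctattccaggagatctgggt
Sval3 region: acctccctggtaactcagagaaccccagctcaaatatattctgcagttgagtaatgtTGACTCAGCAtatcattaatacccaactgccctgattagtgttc

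On the plus strand, the window of the Isl1 region is chr13:115906230-115906330, that of the March6 region chr15:31498088-31498188 and that of the Mapk1ip1 region chr7:138723973-138724073. Also on this strand, the window of the Col18a1 region is chr10:77121423-77121523, that of the Eomes region chr9:118354896-118354996 and that of the Stx8 region chr11:68115883-68115983. On the minus strand, the window of the Sox4 region is chr13:29202076-29202176, that of the Cabcoco1 region chr10:68548225-68548325 and that of the Cpne4 region chr9:104736794-104736894. Also on this strand, the window of the Mbnl1 region is chr3:60631421-60631521, that of the Sh3bp4 region chr1:89206200-89206300 and that of the Sval3 region chr6:41967655-41967755. The 3 bases before the element decide how far it completes the palindrome. Measured over these 13 bases, the windows of the March6, Sox4 and Sval3 regions had 1 mismatch to the T-MARE palindrome, those of the Isl1, Eomes and Cpne4 regions had 3, and the other 6 had 2. The window of the Cpne4 region had the element 0.5 bases from its summit and that of the Mbnl1 region 37.5 bases away.

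The sub-threshold regions were all 296 bp wide with the summit in the middle, and their signal was packed just above the minimum. The pooled signal ran from 12.0 to 43.0 with a median of 13.1, and 46.3% of regions lay between 12 and 13. Only 215 regions had a signal over 16 and 17 a signal over 20. The 3 regions just inside the minimum, nearest to Hexim2, Cd9 and Gm5426, had signals of 12.0003, 12.0012 and 12.0015. The 3 regions just outside it, nearest to Ccdc97, Ube2v1 and Gm815, had signals of 11.9998, 11.9995 and 11.9989. In the optimal list, 70.4% of regions had a signal no higher than the highest sub-threshold region, and 833 had a signal under the sub-threshold median. The deposited −log10 q-values of the sub-threshold regions were 1.99 to 2.89 with a median of 2.09, against a median of 2.23 in the weakest called regions. The signal ranges of called and sub-threshold regions thus overlapped, but most regions of each set lay apart. A signal over 16 was found in 215 of 4265 sub-threshold regions and 14593 of 16836 optimal regions. The optimal list had a lower quartile of 19.1 and a median of 27.8. The 70.4% is measured against the single highest sub-threshold region.

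The replicates shared most of these regions but ranked them differently. Of the 4265 regions, 3639 (85.3%) overlapped both replicates' relaxed lists, 247 overlapped that of replicate 1 alone, 378 that of replicate 2 alone, and 1 neither. Their median signal was 5.68 in replicate 1 and 6.66 in replicate 2, and these values come from lists processed separately. Among the 3639, the position in the ranking of replicate 1 and of replicate 2 differed by a median factor of 2.97, against 1.98 in the 3897 weakest called regions found in both. Only 95 (2.61%) had a signal above 5.68 in replicate 1 and above 6.66 in replicate 2, against 46.8% of the weakest called regions. Across the 3639 regions, log2 signal of the replicates had a Pearson correlation of -0.74 and a Spearman correlation of -0.80, against -0.32 and -0.44 in the weakest called regions. The regions were selected on the pooled signal and on their absence from lists built on reproducibility, so these values describe the choice and support nothing further.

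**Figure D1:**
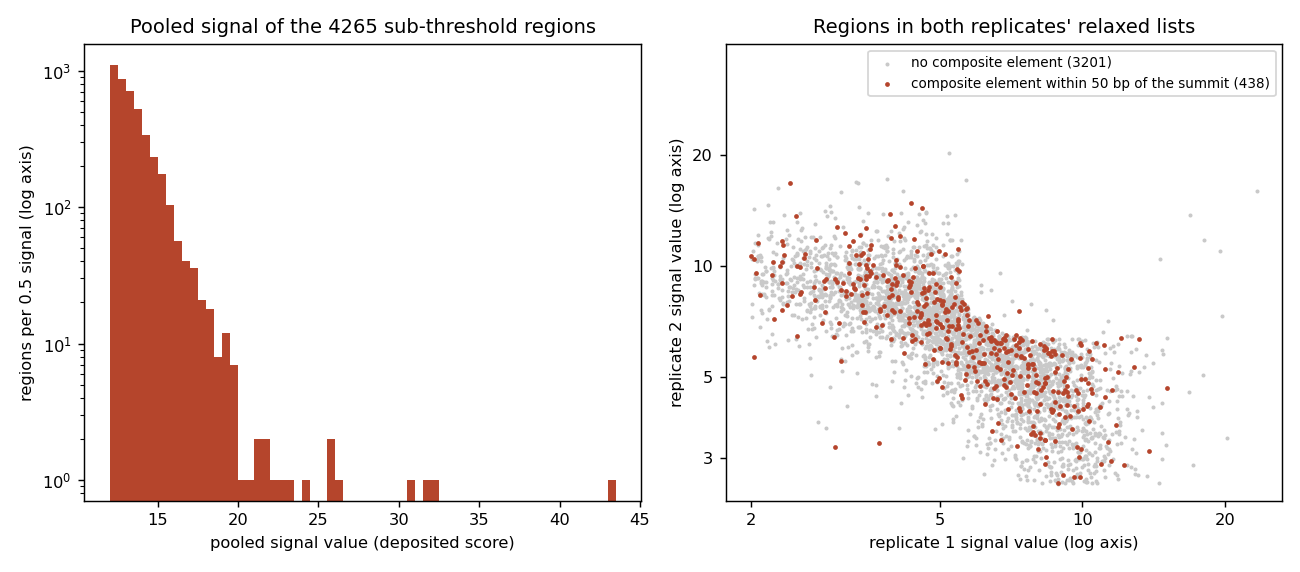
The left panel counts the 4265 sub-threshold regions by pooled signal value in steps of 0.5 on a log axis, and the right panel plots the signal of each of the 3639 regions in both relaxed lists, replicate 1 across and replicate 2 up, both on log axes. The regions form a falling band in which 95 are above both medians, and the 438 with a composite element (red) lie along the whole band.

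In the ranked lists of the second processing run, which give each region an IDR score without a threshold, the regions mostly appeared with weak scores. Of the 4265, 3601 (84.4%) overlapped the shorter ranked list of both replicates with a median IDR of 0.176, and 986 (23.1%) had an IDR of 0.1 or less there. Only 10 overlapped a ranked region that reached the score of an IDR of 0.05 in any of 4 ranked lists. They included regions nearest to Axin2, Cdk8, Aida, Stmn2 (263485 bp away), P4ha2 (2 regions that overlap each other), Polr3k, Cr2 and Cct2, with pooled signals of 15.6 to 43.0. These were named after their values were seen, and why the thresholded lists leave them out was not tested.

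The regions of highest signal lacked the composite element. The first, intergenic and 88697 bp from Axin2, the gene of a WNT pathway inhibitor, had a signal of 43.0 in the pooled list, 23.4 in replicate 1 and 15.99 in replicate 2 (chr11:109011730-109012025, CpG-rich). It was strong in both replicates and lay 100466 bp from the nearest called region. The next 2, close together and downstream of Ly6c2, a gene of a leukocyte surface antigen, had 32.3 and 31.7 in the pooled list (chr15:75086762-75087057 and chr15:75085904-75086199). Replicate 1 gave them 18.1 and 16.9, and replicate 2 gave 11.8 and 13.8. The fourth, in an intron 29677 bp from a TSS of Cdk8, the kinase of the Mediator complex, had 30.9 in the pooled list, 19.5 in replicate 1 and 10.97 in replicate 2 (chr5:146260914-146261209).

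Several others of the first 10, though not all, were more uneven between the replicates. The region 371 bp upstream of Ddit4l, an inhibitor of mTOR signalling, had a signal of 26.0, with 5.22 in replicate 1 and 20.2 in replicate 2 (chr3:137623153-137623448). The one in an intron near Aida had 26.0, with 17.95 in replicate 1 and 5.04 in replicate 2 (chr1:183299298-183299593), and the intronic one nearest to Rpusd4 had 26.0, with 19.7 in replicate 1 and 7.30 in replicate 2. The last 3, nearest to Gm10715, Smad2 and 4931417E11Rik, had pooled signals of 24.1, 23.2 and 22.9. They lay 1002, 53666 and 765730 bp from a TSS of these genes. Replicate 1 gave them 11.3, 5.68 and 15.1, and replicate 2 gave 7.09, 17.1 and 6.36. Of these 10, 0 held the composite element or the palindrome, 3 held the ARE core and 2 the MAF core, and 3 had a repeat-masked summit. Among all 17 regions with a signal over 20, 0 held the composite element, which allows a share of up to 17.6%, against 28 of 198 (14.1%) between 16 and 20 and 475 of 4050 (11.7%) between 12 and 16.

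The 10 holders of the composite element with the highest signal reached 18.1 to 19.7. The first was intergenic, 403142 bp from Isl1, a LIM homeodomain gene, with a signal of 19.7 in the pooled list, 4.35 in replicate 1 and 14.8 in replicate 2. The region in an intron 32915 bp from a TSS of March6, an endoplasmic reticulum ubiquitin ligase gene, had 19.6, with 12.9 in replicate 1 and 5.30 in replicate 2. The region 7527 bp upstream of a TSS of Col18a1, a collagen chain gene, had 19.2, with 2.42 in replicate 1 and 16.8 in replicate 2. The region nearest to Sox4, an HMG-box factor gene, was 248413 bp from its TSS and had 19.1, with 13.2 in replicate 1 and 6.32 in replicate 2. The region nearest to Eomes, a T-box gene of mesendoderm, was 123266 bp from its TSS and had 18.8, with 3.50 in replicate 1 and 12.7 in replicate 2. All 5 were at least 2-fold higher in 1 of the replicates, and which one it was varied. This did not hold for all 10. The region nearest to Cabcoco1 had 12.1 in replicate 1 and 6.37 in replicate 2, while that nearest to Mapk1ip1 had 4.59 and 14.3. The region nearest to Cpne4, 135835 bp from a TSS of it, was absent from the relaxed list of replicate 2, at 15.6 in replicate 1. The 5 holders of lowest signal, nearest to Stx8, Sh3bp4, Arhgap12, Lama3 and Sval3, had pooled signals of 12.0039 to 12.0136, and the region 435 bp upstream of Sval3 was the one within 1 kb of a TSS.

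MAF-type elements marked the summits of the sub-threshold regions. The composite element lay within 50 bp of 503 of 4265 summits (11.8%, 95% Wilson interval 10.9 to 12.8) and in only 2 of the equally wide windows placed 1000 bp downstream (0.0469%). Summits held the MAF core TGCTGA in 43.3% of cases and downstream windows in 7.25%, and the T-MARE palindrome, with up to 2 mismatches, at 18.1% against 0.375%. The ARE core (TGACNNNGC or TGAGNNNGC) was at 36.6% against 8.09%, the AP-1 element (TGACTCA or TGAGTCA) at 19.4% against 1.59%, and the AT-extended MAF core at 16.7% against 1.06%. The composite element contains an AP-1 element, an ARE core and a MAF core, so these shares overlap. McNemar's exact test, two-sided, gave an adjusted p = 7.32e-147 for the composite element (503 regions with it at the summit alone and 2 with it downstream alone), and p for the MAF core was at the floor of 1e-300 used for exact tests. Regions are not independent replicates, and the p-values describe these lists.

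With 1 replicate at a time, the shares were lower and the direction held. The 4265 regions of highest signal outside the called lists in replicate 2's relaxed list alone had the composite element 6.35 percentage points more often at summits than downstream, and those of replicate 1 alone 7.39 points, against 11.7 in the pooled list. The MAF core differed by 21.9 points in replicate 2 alone and 29.8 in replicate 1 alone, against 36.1, and the palindrome by 10.2 and 12.5 points, against 17.7. By overlap with the replicates' relaxed lists, the composite element was at 12.0% of the 3639 summits found in both, 13.8% of the 247 found in replicate 1 alone (interval 10.02 to 18.6) and 8.20% of the 378 found in replicate 2 alone (5.84 to 11.4).

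Read in order of completeness, the elements accounted for 59.1% of summits. The composite element came first with 11.8%, the palindrome without it added 10.3%, the ARE core 17.7%, the AT-extended MAF core 8.84% and the plain MAF core 10.4%. The remaining 40.9% of summits had none of them within 50 bp, against 37.5% of the weakest called summits, 51.3% of summits with a signal of 10 to under 12, and 85.4% of the downstream windows. A complete T-MARE palindrome was at 1 of the 4265 summits, 1 mismatch at 171 (4.01%), 2 mismatches at 601 (14.1%) and 3 at 828 (19.4%). Complete palindromes were at 5 of the weakest called summits and 361 of all 16836 optimal summits (2.14%). Where exactly 1 base was off, it was most often the outermost base of the palindrome (36 of 171, 21.1%) and least often its centre (8 of 171, 4.68%). The centre is a single position that accepts C or G, whereas the outermost base was counted at both ends. In all optimal regions the outermost base took 28.9% of single mismatches and the centre 4.89%.

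Other elements at the summits were rare. The C-MARE palindrome, a MAF element with a longer spacer, was at 1.01% of summits against 0 of 4265 downstream windows, where up to 0.0703% would be allowed (exact McNemar test, adjusted p = 5.12e-13). The core of CTCF, the insulator protein, was at 2.65% against 0.141% (exact test, adjusted p = 2.83e-26), the GC box of SP/KLF factors, GGGCGGGGC, at 0.844% against 0.141% (adjusted p = 5.09e-06, exact test) and the ETS element CCGGAAGT at 0.399% against 0.0703% (exact test, adjusted p = 0.00422). CA repeats were less frequent at summits (0.399% against 1.81%, exact test, adjusted p = 3.20e-10). The shuffled control GTTCAG was at 5.77% against 4.502% (exact test, adjusted p = 0.0137), so a difference of 1.27 points was also seen for a sequence that no factor here was chosen for. It did not pass with windows 1000 bp upstream (0.469 points, exact test, adjusted p = 0.364) or 2000 bp downstream (0.680 points, adjusted p = 0.202), with either replicate alone or at a minimum of 15. The control did pass with 25 bp and 100 bp windows (exact test, adjusted p = 0.0307 and 0.0264) and at a minimum of 10 (adjusted p = 0.00277). It also passed among regions in both relaxed lists (exact test, adjusted p = 0.0218) and those with no called region within 1000 bp (adjusted p = 0.00924).

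A search over all 6-base sequences, which uses no list of elements, was led by pieces of the same motif. Of all distinct 6-base sequences, both strands counted as the same, 213 (10.2%) were more frequent at the summits and 146 (7.02%) more frequent downstream at an adjusted p under 0.01 by McNemar's exact test. The sequence of smallest p was TCAGCA, the MAF core on the other strand, at 43.3% of summits against 7.25% of downstream windows. It was followed by GCTGAC at 23.8% against 4.85%, GAGTCA at 24.6% against 5.37%, CTCAGC at 29.1% against 8.46% and GACTCA at 23.1% against 5.16%. These are overlapping pieces of the palindrome. The next were ACTCAG at 24.3% against 8.09%, AGTCAG at 20.8% against 7.25%, CAGCAG at 23.4% against 9.61%, CAGCAA at 18.8% against 7.95% and AGTCAT at 14.3% against 5.23%. Of the 8 possible sequences with TGCTG on either strand, 7 were among the 213. A further 93 of the 213 held CG, as did 604 of all distinct sequences. Those more frequent downstream were led by AT-rich sequences such as TATAAA (4.71% at summits against 8.63%). In the 4265 regions of replicate 1 alone, 146 sequences were higher at summits and 56 downstream, and in those of replicate 2 alone 278 and 183.

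**Figure D2:**
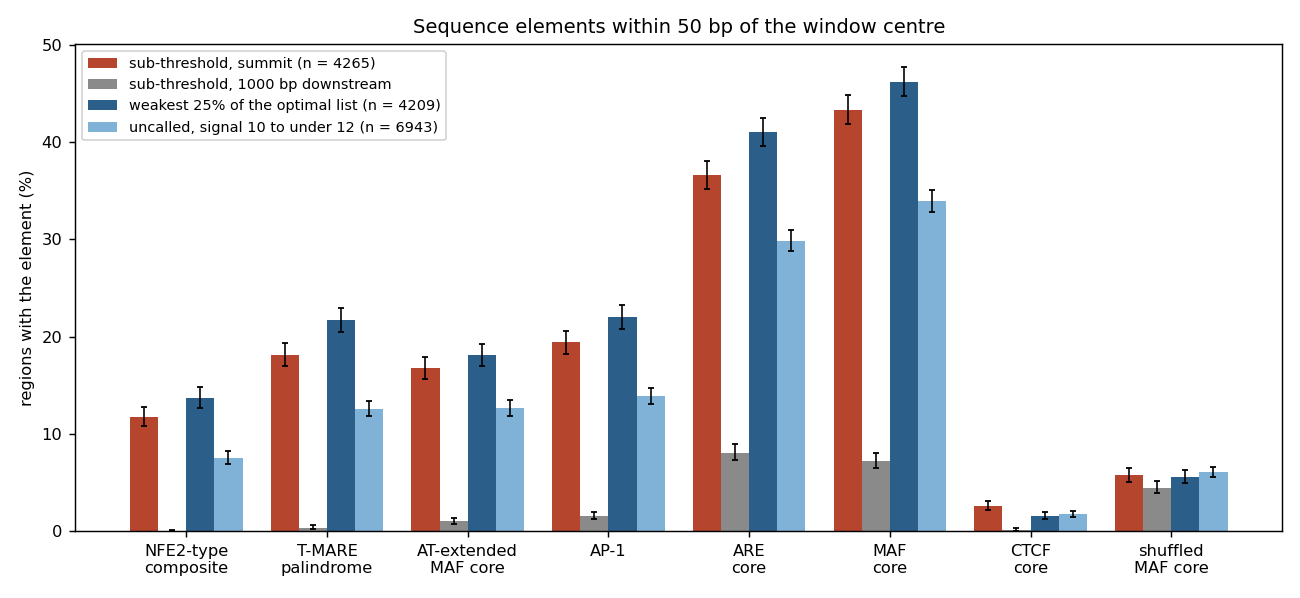
Bars give the percent of regions with each element within 50 bp of the window centre, with 95% Wilson intervals, for sub-threshold summits, windows 1000 bp downstream of them, the weakest called summits and summits with a signal of 10 to under 12. For the composite element the bars stand at 11.8%, 0.0469%, 13.7% and 7.58%, while the shuffled control stays between 4.502% and 6.08%.

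Of 7 MAF-type elements, 5 were less frequent in the sub-threshold regions than in the weakest called ones. Of these 4209 called regions, 616 had a signal under 12, below the minimum set for the sub-threshold regions. Few optimal summits there held the composite element, 4 of 120 at a signal of 8 to 10 and 9 of 181 at 10 to 12. The called shares include these regions, and the comparison at a signal of 12 to under 16 below leaves them out. The composite element was at 11.8% of sub-threshold summits and 13.7% of the weakest called summits (an odds ratio of 0.84, interval 0.74 to 0.95, with an adjusted p = 0.0246 by Fisher's exact test). The palindrome was at 18.1% against 21.7% (0.80, 0.72 to 0.89, adjusted p = 0.000356 by the exact test), the ARE core at 36.6% against 41.0% (exact test, adjusted p = 0.000356), the MAF core at 43.3% against 46.2% (adjusted p = 0.0246, same exact test) and the AP-1 element at 19.4% against 22.0% (exact test, adjusted p = 0.0143). The AT-extended core at 16.7% against 18.1% and the C-MARE palindrome at 1.01% against 1.14% did not pass (same exact test, adjusted p = 0.231 and 0.687). The CTCF core went the other way, at 2.65% against 1.62% (an odds ratio of 1.66, 1.22 to 2.25, adjusted p = 0.00706, exact test). The shuffled control was at 5.77% against 5.61%, a difference that did not pass (exact test, adjusted p = 0.778). With single replicates only the sub-threshold side changed, and the called side stayed the weakest called regions of the pooled list. The 2 sides then came from unlike lists. The composite difference was larger there, -7.21 points for the regions of replicate 2 alone and -6.23 for those of replicate 1 alone, against -1.94 in the pooled list. The palindrome was at -11.05 and -8.70 points, against -3.57, and the MAF core at -16.7 and -8.91, against -2.86. The AT-extended core was at -10.2 points and passed in replicate 2 alone (exact test, adjusted p = 1.02e-43), and at -1.46 in replicate 1 alone. The CTCF difference in replicate 1 alone was 0.119 points and did not pass.

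The weakest called regions had a higher median signal, 15.8 against 13.1. Both were therefore also set side by side in the same range of signal, a comparison chosen after the data had been seen. Signal was not matched within this range. Of the 4050 sub-threshold regions in it, 1975 lay at 12 to 13 and 846 at 14 to 16. Of the 1626 optimal regions, 196 and 1103 did. At a signal of 12 to under 16, the composite element was at 475 of 4050 sub-threshold summits (11.7%) and 216 of 1626 optimal summits (13.3%). The odds ratio was 0.87, with an interval of 0.73 to 1.03 (adjusted p = 0.191, Fisher's exact test). MAF cores were found at 42.9% against 46.4% (adjusted p = 0.0809, exact test), the palindrome at 17.8% against 20.7% and the ARE core at 36.3% against 40.3% (exact test, adjusted p = 0.0771 for both). The CTCF core did not pass either, at 2.59% against 1.60% (exact test, adjusted p = 0.0833). AP-1 elements were at 19.3% against 21.9% (exact test, adjusted p = 0.0833). The unadjusted intervals of the odds ratio lay below 1 for the palindrome (0.72 to 0.96), the ARE core (0.75 to 0.95), the MAF core (0.77 to 0.98) and the AP-1 element (0.74 to 0.98). The MAF core difference was -3.46 points here and -2.86 points in the comparison above, where the called side also held regions with a signal under 12. In narrower steps the MAF core shares were 42.7% against 42.3% at 12 to 13 and 42.4% against 43.1% at 13 to 14. At 14 to 16 they were 44.2% against 48.1%. The composite, MAF core and AP-1 calls were also lost among the 4034 regions with no called region within 1000 bp, with differences of -1.51, -1.59 and -2.17 points (exact test, adjusted p = 0.127, 0.338 and 0.0720). They were lost too among the 3639 regions in both relaxed lists (-1.70, -2.85 and -2.07 points, exact test, adjusted p = 0.0791, 0.0520 and 0.0791), while the palindrome and ARE core calls held in both.

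Against the uncalled regions with less signal, MAF elements were more frequent. The composite element was at 11.8% of sub-threshold summits and 7.58% of summits with a signal of 10 to under 12 (an odds ratio of 1.63, 1.43 to 1.86, adjusted p = 5.90e-13 by Fisher's exact test). MAF cores were found at 43.3% against 33.9% (1.49, adjusted p = 5.22e-22, same exact test), the palindrome at 18.1% against 12.6% and the AT-extended core at 16.7% against 12.7%. The CTCF core was at 2.65% against 1.77% (exact test, adjusted p = 0.00573). The shuffled control was at 5.77% against 6.08% and did not pass (exact test, adjusted p = 0.657).

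Outside all called lists, the composite share rose with signal in steps rather than at the minimum of 12. It was 0.580% of 170587 regions at a signal of 4 to 6, 1.89% at 6 to 8, 4.34% at 8 to 10 and 7.58% at 10 to 12. Among the sub-threshold regions it was 10.2% at 12 to 13, 12.5% at 13 to 14, 14.2% at 14 to 16 and 14.1% of 198 regions at 16 to 20. In the optimal list the same steps held 11.2%, 11.3%, 14.2% and 18.7%. The share reached 54.9% at a signal of 100 or more. The intervals of both sets overlapped in each of the 4 steps. The MAF core shares were 42.7%, 42.4%, 44.2% and 53.0% in the 4 sub-threshold steps and 42.3%, 43.1%, 48.1% and 55.2% in the optimal list. Below a signal of 8, the optimal list held the composite element at 0 of 171 summits at 4 to 6 and 0 of 131 at 6 to 8, which allows shares of up to 1.75% and 2.29%. The values in this paragraph are descriptions, since signal took part in choosing the regions.

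**Figure D3:**
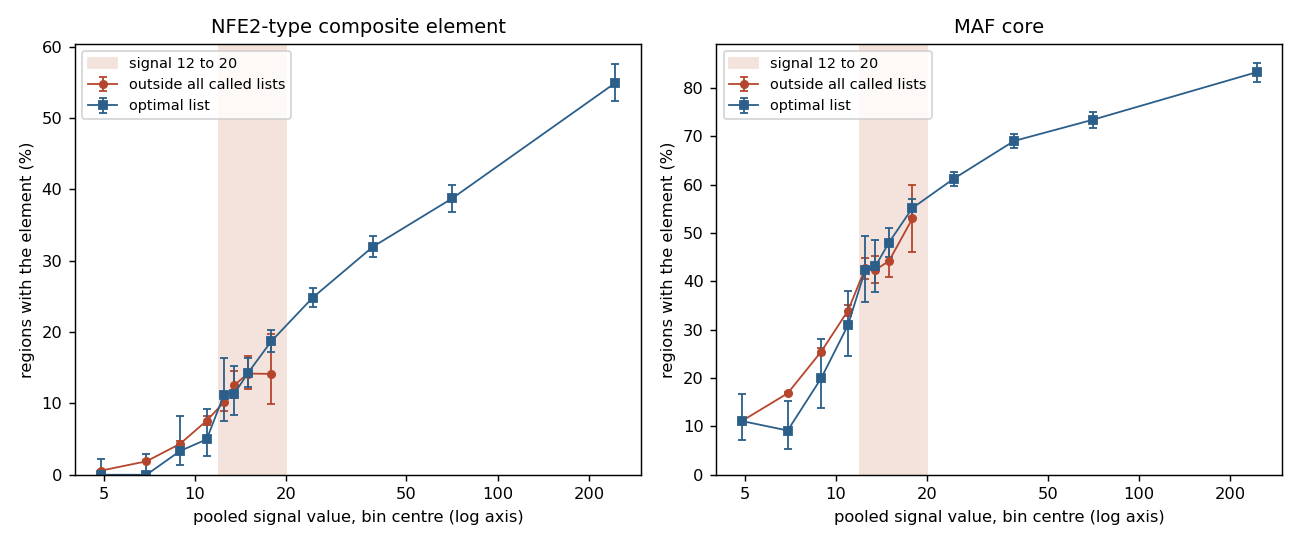
Percent of regions with the composite element (left) and the MAF core (right) by pooled signal on a log axis, for regions outside all called lists (red circles) and the optimal list (blue squares), with 95% Wilson intervals. Within the shaded range of 12 to 20 the red and blue intervals overlap, with points at 10.2% to 14.2% and 11.2% to 18.7% for the composite element.

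The elements sat at the summits of the sub-threshold regions. Of 573 regions with a composite element within 300 bp of the summit, 375 (65.4%) held it within 25 bp, and the median distance was 16.5 bp. In the weakest called regions the median was 18.5 bp and the share 60.5%, and at a signal of 10 to under 12 they were 19.5 bp and 59.0%. The MAF core was at a median of 26.5 bp and the shuffled control at 126.5 bp. In the 20 bp on either side of the summit, 3.94% and 3.61% of the sub-threshold regions held the composite element, and 14.9% and 13.3% the MAF core.

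**Figure D4:**
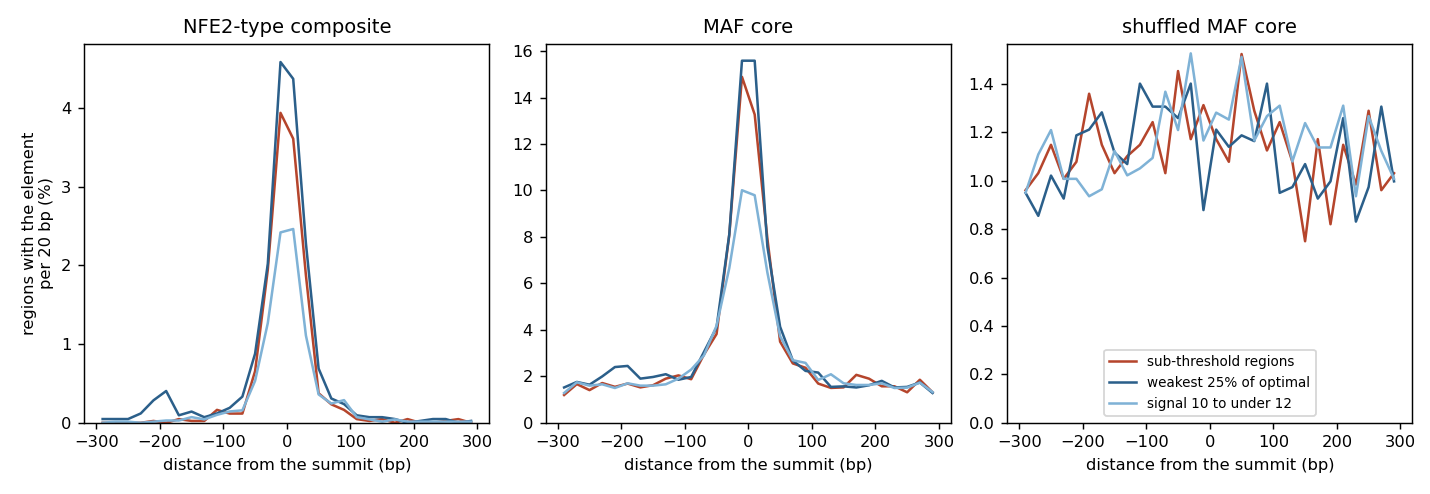
Percent of regions with an element whose centre falls in each 20 bp step, by distance from the summit in bp, for the composite element, the MAF core and the shuffled control. The sub-threshold regions (red) peak at the summit at 3.94% and 14.9%, between the weakest called regions and those with a signal of 10 to under 12, and the shuffled control shows no peak.

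No difference in location between the sub-threshold and the weakest called regions passed the test. Of the sub-threshold summits, 18.9% were within 1 kb of any annotated transcription start site (TSS), 3.75% in other exons, 39.5% in introns and 37.9% intergenic, against 19.7%, 3.35%, 39.0% and 37.9%. CpG-rich windows, those with over 50% GC and an observed-to-expected CpG ratio over 0.6 around the summit, held 8.04% against 8.39%, and repeat-masked sequence held 15.01% of summits against 15.5%. None of the 6 differences passed (Fisher's exact test, adjusted p = 0.788 to 1), nor did any against summits with a signal of 10 to under 12 (same exact test, lowest adjusted p = 0.167). The odds ratio for TSSs was 0.94 with an interval of 0.85 to 1.05, that for CpG-rich windows 0.96 (0.82 to 1.12) and that for repeats 0.96 (0.85 to 1.08), so differences inside these intervals could not be seen. Against all optimal regions, which include much stronger ones, the sub-threshold regions were more often within 1 kb of a TSS, by 3.59 points (exact test, adjusted p = 5.77e-08), and CpG-rich, by 2.77 points (adjusted p = 1.85e-10). Median distances to a protein-coding TSS were 22411 bp against 21170 bp, and 33.1% against 33.0% lay beyond 50 kb.

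**Figure D5:**
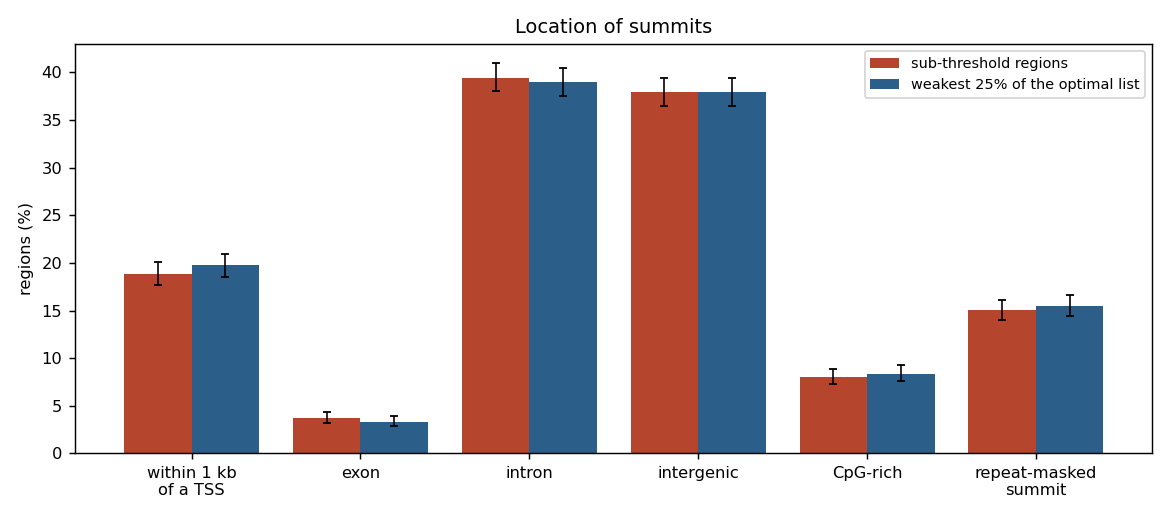
Percent of summits in each annotation class, with 95% Wilson intervals, for the 4265 sub-threshold regions (left bars) and the 4209 weakest called regions (right bars). The first 4 classes exclude each other, CpG-rich windows and repeat-masked summits cut across them, and the intervals overlap in all 6.

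Sub-threshold regions at promoters and elsewhere differed in their sequence, in a comparison chosen after the data had been seen. Within 1 kb of a TSS, the composite element was at 19 of 804 summits (2.36%), against 484 of 3461 (13.98%) farther away (an odds ratio of 0.15, 0.09 to 0.24, adjusted p = 2.42e-25 by Fisher's exact test). MAF cores were at 25.9% against 47.4% and the palindrome at 6.22% against 20.9%. The shuffled control was also lower, at 3.98% against 6.18% (odds ratio 0.63, adjusted p = 0.0241 by the exact test). GC boxes were at 3.23% against 0.289% (11.5, adjusted p = 9.67e-12, exact test) and ETS elements at 1.37% against 0.173% (exact test, adjusted p = 9.18e-05). No set of promoters without a region was used, so the differences cannot be told apart from those of promoter sequence in general. The promoter summits themselves held the composite element more often than their downstream windows, which had it in 0 of 804, allowing up to 0.373% (exact McNemar test, adjusted p = 1.14e-05), and the MAF core at 25.9% against 5.97%. Of the 343 CpG-rich regions, 311 (90.7%) were within 1 kb of a TSS, and 1 held the composite element. In the weakest called regions, the composite element was likewise at 6.38% of 831 summits within 1 kb of a TSS and 15.5% of 3378 farther away.

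Repeat-masked summits carried the composite element more often than the others, again in a comparison chosen after the data had been seen. It was at 122 of 640 masked summits (19.1%) and 381 of 3625 unmasked ones (10.5%), with an odds ratio of 2.01 (1.60 to 2.51, Fisher's exact test, adjusted p = 9.65e-08). In the weakest called regions it was at 23.4% of 653 masked and 12.0% of 3556 unmasked summits, and the difference between the sets was not tested. The palindrome was at 25.3% against 16.9% and the AT-extended core at 23.6% against 15.5% (exact test, adjusted p = 7.61e-06 for both). The plain MAF core was at 45.8% against 42.9% and did not pass (exact test, adjusted p = 0.360). The CTCF core was at 1.25% against 2.90% (exact test, adjusted p = 0.0465). The reference marks repeats by lower case without naming their family, so the families were not analysed here. Repeat copies can share a sequence, so these regions are not independent.

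The X chromosome held few sub-threshold regions, and few regions of the optimal and relaxed lists too. Of the 4265, 73 (1.71%) were on X, against 64 of 4209 (1.52%) among the weakest called regions (odds ratio 1.13, 0.80 to 1.58, Fisher's exact test, p = 0.492). Outside assembly gaps X had 0.447 per Mb and the autosomes 1.75, a ratio of 0.255, while optimal regions had 0.228 and the relaxed list 0.222. The line is male and has a single X, and the part of this in the ratio was not tested. Chromosome 11 had the highest density, 2.45 sub-threshold regions per Mb, and also the highest density of optimal regions, 9.93 per Mb.

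Most sub-threshold regions stood alone. The median gap to the nearest called region was 28607 bp, 231 (5.42%) had one within 1 kb and 26.0% within 10 kb. For regions with a signal of 10 to under 12 these were 26172 bp, 6.52% and 27.7%. Both sets were chosen to overlap no called region. The sub-threshold regions occupied 4264 separate places, since only the pair near P4ha2 overlapped, and 156 (3.66%) had another sub-threshold summit within 5 kb. Among the weakest called regions, 550 of 4209 (13.1%) had another summit of their own set within 5 kb. In 4 places 3 such summits followed each other at steps of up to 5 kb, and all 4 are named here although they were chosen after their values were seen. They were at Hjurp, a centromere histone chaperone gene (21 bp from a TSS, signals 12.5 to 13.3), at Pcbp1 (an iron gene described below), 18810 bp from Ppp1r21 (12.1 to 13.4) and 13739 bp from Sox2, the pluripotency factor gene (chr3:34663996-34671598, 12.6 to 13.5). The run near Sox2 was 9738 bp from the nearest called region.

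Gene by gene, a sub-threshold summit lay within 10 kb of a protein-coding TSS for 1786 of 21646 genes (8.25%). For 1209 genes (5.59%) there was such a summit and no optimal summit in that range, and regions of the other thresholded lists were not counted for this. Such a region can still be near: the nearest called region was 500 bp from the first Pcbp1 region and 1439 bp from the Gsta2 region described below. Within 2 kb in place of 10 kb the count was 705 genes, and within 50 kb it was 1569. The gene lists were chosen with earlier results of these data known and are small, and they are described by counts beside these shares, with no test. Of 20 small MAF, CNC and AP-1 factor genes, 5 had a sub-threshold summit and 4 of them no optimal one, and the last count was 0 within 2 kb and 2 within 50 kb. For heme and iron genes the counts were 6 and 3 of 24, with 0 in place of 3 within 50 kb, for proteasome genes 5 and 4 of 33, and for pluripotency genes 5 and 2 of 24. For NRF2-type antioxidant genes they were 5 and 1 of 36, for lineage genes 2 and 0 of 20 and for housekeeping genes 3 and 3 of 15. Within 2 kb and 50 kb the second count was 0 and 1 for pluripotency, 0 and 0 for antioxidant, 1 and 1 for lineage and 2 and 1 for housekeeping genes, while for proteasome genes it was 3 in both. Of the 36 antioxidant genes, 27 already had an optimal summit within 10 kb, against 5037 of all 21646 genes (23.3%). Such a summit was found for 16 of 24 heme and iron, 22 of 33 proteasome and 15 of 24 pluripotency genes. For the factor, lineage and housekeeping lists the counts were 10 of 20, 9 of 20 and 6 of 15. Of its genes with a sub-threshold and no optimal summit, the factor list held 4 of 20 and the housekeeping list 3 of 15, the same share, and nearness does not show that a gene is a target.

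The gene of MAFK itself had a sub-threshold region. It lay in an intron 2450 bp from a TSS of Mafk, with a signal of 13.7 in the pooled list, 4.13 in replicate 1 and 10.01 in replicate 2 (chr5:139794916-139795211). It held an ARE core and an AP-1 element, and the nearest called region was 99664 bp away. Atf3, the gene of a stress-induced partner of AP-1 factors, had 3 intronic regions with signals of 13.4, 12.2 and 12.1 (chr1:191180783-191181078 for the first), 92484 bp or more from any called region. The first had 5.24 in replicate 1 and 6.26 in replicate 2 and held none of the elements searched. A region 8120 bp from a TSS of Bach2, a CNC repressor gene, had 12.9 and was found in replicate 2 alone, at 9.49, and it held an ARE core and a palindrome with up to 2 mismatches. It was 2547 bp from a called region. Jund, the gene of an AP-1 subunit, had a region 2022 bp from a TSS with 12.2, found in replicate 2 alone at 7.27, with none of the elements searched. The Jund region and the weakest Atf3 region lie outside the 4 highest of their list and were chosen after their values were seen.

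Heme and iron genes included an iron chaperone and an iron sensor. Pcbp1, the gene of an iron chaperone that delivers iron to ferritin, had 3 regions with signals of 15.9, 13.5 and 12.7, the first 73 bp from a TSS in a CpG-rich window with 4.68 in replicate 1 and 7.77 in replicate 2, and none of them held a MAF-type element. Ireb2, which encodes an iron regulatory protein, had an intergenic region 6035 bp from a TSS with 13.2, with 6.56 in replicate 1 and 3.36 in replicate 2 and a MAF core.

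In the other lists, Gsta2, a glutathione transferase gene, had the region of the antioxidant list, at a signal of 12.6 with 8.25 in replicate 1 and 5.73 in replicate 2, 2505 bp from a TSS. It held a MAF core and was 1439 bp from a called region. The same region lay 9884 bp from a TSS of Dppa5a, a gene of the pluripotency list. The proteasome genes were Psmd6 (13.2), Psmb1 (12.6), Psmd13 (12.5) and Psmd4 (12.2), and of their 4 regions that of Psmb1 alone held an ARE core and a palindrome with up to 2 mismatches. The Psmb1 region, chr17:15495777-15496072, is the same one as that of Tbp in the housekeeping list. Among pluripotency genes, Sall4, a zinc finger factor gene, had an intronic region of 16.1 with 2.95 in replicate 1 and 9.66 in replicate 2 and a MAF core (chr2:168762547-168762842). Nr0b1, the gene of the nuclear receptor DAX1 on X, had 13.1, with 3.03 in replicate 1 and 6.54 in replicate 2, a MAF core and an AP-1 element, 168537 bp from any called region. The remaining housekeeping genes, Rplp0 (13.2, 198 bp from a TSS) and Eef1a1 (12.8, 289 bp), had promoter regions, and that of Rplp0 held an ARE core and a CTCF core.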

How the data were processed

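The deposited files are region lists on mm10. Which aligner and caller made them is not given in the sources used here. According to the labels' text notes, the relaxed and optimal lists came from 1 processing run and the ranked lists from another. The signal column is a score deposited by the authors, with scale not stated. The significance column holds the authors' −log10 q-value, and the IDR score is a deposited score in which 540 stands for an IDR of 0.05. Depth is unknown, since no list gives read counts.

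The regions, lists and comparisons were chosen with earlier results of these data known. Both strands of the 101 bp around each summit in GRCm38 were searched for elements, with 2 mismatches for the palindromes. TSSs were from GENCODE vM21. Summits and downstream windows were compared by McNemar's exact test, and sets of regions by Fisher's exact test, two-sided, with Benjamini-Hochberg adjustment over 18 families, 6 location classes or all 6-base sequences, at 0.05 (0.01 for sequences). Intervals of shares are 95% Wilson intervals and cover counting error only. The element search and sequence test were tested on simulated windows. Regions named are the 10 of highest signal, the 10 highest and 5 lowest with the composite element, 3 on either side of the minimum, and up to 4 per gene list at genes without an optimal summit. A few items this rule names are not reported here. Python 3.11.15, numpy 2.4.6, pandas 2.3.3 and scipy 1.17.1 were used.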

Additional observations from a re-analysis of the deposited data

How the results depend on the processing

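The summit-against-downstream calls of the palindrome, MAF core and composite element, and their calls against signal 10 to under 12, held in every alternative run for them. These were signal minima of 15 and 10, another overlap rule, shared or isolated regions, single replicates, windows of 25 and 100 bp, other flanks, 1 mismatch and, chosen after seeing the data, no CpG-rich windows, as far as each applied. A minimum of 15 left 493 regions and one of 10 gave 11208. The counts of 6-base sequences higher at the summit and downstream were 15 and 1 at a minimum of 15, 460 and 342 at 10 and 127 and 81 with 25 bp windows, since fewer or more regions and bases were tested. With single replicates the downstream count was 56 to 183.

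Against called regions, differences in percentage points (sub-threshold minus called) moved as follows, and the cause was not tested where the setting itself does not show it. At a minimum of 15 the composite element turned to 1.07, the MAF core to 0.0607, AP-1 to 1.71, the C-MARE palindrome to 0.279 and the ARE core to 0.551, and the palindrome was at -1.20, none past the threshold in 493 regions. With both sets at signal 12 to under 16, also chosen after seeing the data, the composite element, MAF core and palindrome were at -1.56, -3.46 and -2.90. In both relaxed lists the first 2 were at -1.70 and -2.85, without called regions within 1000 bp at -1.51 and -1.59, and with 25 bp windows the composite element was at -1.41. None of these passed. AP-1 did not pass either at signal 12 to under 16 (-2.61), in both relaxed lists (-2.07) or without called regions nearby (-2.17). The ARE core did not pass at signal 12 to under 16 (-3.94). Sets with stronger called regions gave larger differences. Against all optimal regions the composite element, palindrome and MAF core were at -16.4, -21.1 and -19.5, and against optimal regions with signal 12 to 43.0 at -11.6, -15.4 and -16.2, compared with -1.94, -3.57 and -2.86 as reported.

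The location differences were not past the threshold, and their signs turned. With single replicates the called side stayed the weakest called regions of the pooled list. Within 1 kb of a TSS the difference was 3.59 against all optimal regions and 3.89 against optimal regions with signal 12 to 43.0. It was 0.511 against the weakest 25% of the conservative list and 0.696 with both sets at signal 12 to under 16. With single replicates it was -0.212 to 1.80. For CpG-rich windows these were 2.77, 2.86, 0.0681, 0.927 and 0.265 to 1.13, with 0.132 at a minimum of 15 and 0.241 at 10. The first 2 of each passed. Repeat-masked summits were at -1.36 and -1.84 against the first 2 sets, both past the threshold, and at -1.92 to 0.687 with single replicates, and the X share at -0.208 to 0.0738. Intergenic summits, 0.0179 in the comparison as reported, were at -1.49, -1.63, -0.439 and -0.229 in the same order, -0.244 in both relaxed lists, -1.002 and -1.15 at minima of 15 and 10, and -2.33 to -0.00550 with single replicates. Intronic summits were at -2.14, -2.27, -0.185 and -0.678 in the same order (the first 2 past the threshold) and at -0.395 and -0.371 with single replicates, and exonic ones at -0.510 at a minimum of 15. The shuffled control turned to -0.0561 in both relaxed lists, -0.113 against the conservative list, -0.214 to 0.583 with single replicates and, against signal 10 to under 12, to 0.178 with 25 bp windows. The CTCF difference from called regions was 0.119 in replicate 1 alone. It did not pass there, at signal 12 to under 16 or at either other minimum. No paired analysis was possible because the study has 1 group.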
